A study of Mus musculus with 40 samples.

Results

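The respiratory chain of mitochondria is built from proteins of both genomes, and 87 of the 11450 genes of the deposited table belong to its nuclear-encoded part by a rule on gene symbols. The rule took every symbol that starts with Nduf, Uqcr or Atp5, every Cox symbol whose number runs from 4 to 8, and Sdha, Sdhb, Sdhc and Sdhd. It used names alone and no measured value. By symbol, 38 genes fall to complex I, 4 to complex II, 8 to complex III, 14 to complex IV and 14 to complex V. A further 7 Ndufaf genes are assembly factors of complex I and not subunits, and 2 Atp5-named genes, Atp5s and Atp5sl, are factors too.

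Complexes I and II pass electrons from NADH and succinate to ubiquinone, complex III passes them on to cytochrome c, and complex IV, cytochrome c oxidase, hands them to oxygen. Complexes I, III and IV pump protons as they do so, and complex V, the ATP synthase, uses the proton gradient to make ATP. Heart muscle cells are packed with mitochondria and make most of their ATP this way, and a few subunits of cytochrome c oxidase exist there as a heart and skeletal muscle form beside a form that most tissues use.

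Messenger RNA was sequenced from 20 adult C57BL/6 mice whose left anterior descending coronary artery had been tied permanently. From each heart came 1 library of the scar in the injured region and 1 of a remote region, called uninjured, so the uninjured libraries too are from infarcted hearts and no sham-operated heart was used here. The 10 groups are the injured and the uninjured region on day 3, 7, 14, 21 and 42 after ligation, with 4 mice a day. Mice of days 3 to 21 carry labels that start with A and those of day 42 labels that start with B, so the time to day 42 and the set of mice cannot be told apart. Mice are named by label and day, since different animals share a label on different days.

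The labelled tissue is cardiac muscle, and all 12 cardiomyocyte marker genes listed, such as Myh6, Tnnt2 and Actc1, were above 0 in all 40 libraries. Levels are RPKM, reads per kilobase of gene scaled to the size of the library by the authors. Whole reads could be worked back for all 11450 genes and gave 12123945 to 33596397 reads per library. Each library size behind the deposited values matched the total of recovered reads times a TMM factor, a scaling that holds the bulk of genes level between libraries; the factor was 1.23 to 1.35 in injured and 0.702 to 0.881 in uninjured libraries. Over the 40 libraries a member had at least 47 reads, and the members' medians ran from 172 to 53792 reads.

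The scar contained less RNA of nearly the whole respiratory chain. On each of the 5 days 86 of the 87 genes were lower in the injured region than in the uninjured one and none was higher, by limma with the mouse as a block and Benjamini-Hochberg adjustment over 11390 genes (adjusted p under 0.05). Ndufa4l2, a paralog of Ndufa4, was the 1 gene not called on any day. The median difference over the 87 genes was -2.90 on day 3, -2.96 on day 7, -2.57 on day 14, -2.66 on day 21 and -2.24 on day 42, as log2 of RPKM + 1, injured minus uninjured. Over all genes tested that median was 0.03 to 0.06.

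Calls were frequent in this comparison, so the members' count is read against them. Of all genes tested, 39.6% were lower and 44.1% higher on day 3, 38.7% and 43.6% on day 7, 40.5% and 42.4% on day 14, 41.0% and 43.1% on day 21, and 38.7% and 40.5% on day 42. Among the 87 genes the share lower was far above that on all 5 days. At an unadjusted p under 0.05 there was again no member higher on any day, and voom on the recovered reads gave the same 86 lower and 0 higher. The voom fit used the library sizes behind the deposited values, so it cannot show whether these calls depend on the scaling. In 86 members all 4 injured libraries lay below all 4 uninjured ones on each day, which held for 37.3% of all genes on day 3, 33.9% on day 7, 37.3% on day 14, 38.3% on day 21 and 35.1% on day 42. These calls hold the bulk of genes level, as the deposited scaling does. With each library set to the same total of RPKM the median over all genes was 0.62 to 1.005 over the 5 days and the members' median lay -2.87 to -2.08 from it, against -3.01 to -2.27 in the deposited scaling. Quantile normalization brought the members nearest to all genes, at -2.50 to -1.58. Of all called genes, 77.5 to 88.3% were higher with the same total of RPKM, against 51.1 to 53.0% in the deposited scaling. With that same total 2 or 3 members were called higher on a day. With the total of recovered reads 76.7 to 81.0% of called genes were higher, and 1 or 2 members were. In 85 members the highest of all 20 injured values was below the lowest of all 20 uninjured values, the other 2 being Cox6a1 and Ndufa4l2. This separation over all days was not counted over all genes, so the 85 has no share to be read against.

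In bulk tissue, fewer heart muscle cells and less of an RNA in each cell cannot be told apart. The 12 cardiomyocyte markers were lower in the injured region on every day as well, 12 of 12, with a median difference of -3.76, -4.21, -2.73, -3.03 and -2.52 on days 3, 7, 14, 21 and 42. Their summed level was 1920.4 to 4059 RPKM on day 3, 1690.3 to 2645 on day 7, 5065 to 8264 on day 14, 3983 to 6874 on day 21 and 4964 to 8725 on day 42 in injured libraries, against 25790 to 41219 in uninjured ones over all days. Of the other marker lists, 8 of 8 macrophage markers were higher on each day, and of 8 fibroblast markers 6 were higher and 1 lower on day 3 and all 8 higher from day 7 on. Endothelial markers were lower with the members, 6 of 6 on days 7, 14, 21 and 42 at medians of -1.01, -0.76, -0.89 and -1.08, with 2 lower and 2 higher on day 3. Of 8 pericyte and smooth muscle markers 4 were lower and 4 higher on day 3, and 3 were lower and 5 higher on each later day. The part of these cell types in the members' difference was not tested.

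The median of the 87 genes was lower by less than the median of the cardiomyocyte markers in all 4 mice of day 3, all 4 of day 7 and all 4 of day 21, and in 2 of 4 mice of day 14 and 3 of 4 of day 42. On day 7 the 4 mice had a members' median of -2.94, -3.05, -2.97 and -2.84 against a marker median of -4.00, -4.04, -4.89 and -3.52. On day 42 the members stood at -2.25, -2.04, -2.26 and -2.47 and the markers at -2.38, -2.004, -2.54 and -2.73. The gap between both lists was thus wide in the first week and small at 42 days. As a share of all recovered reads, the 87 genes made up 0.522 to 1.14% in injured and 2.67 to 3.79% in uninjured libraries, with no overlap.

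**Figure D1:**
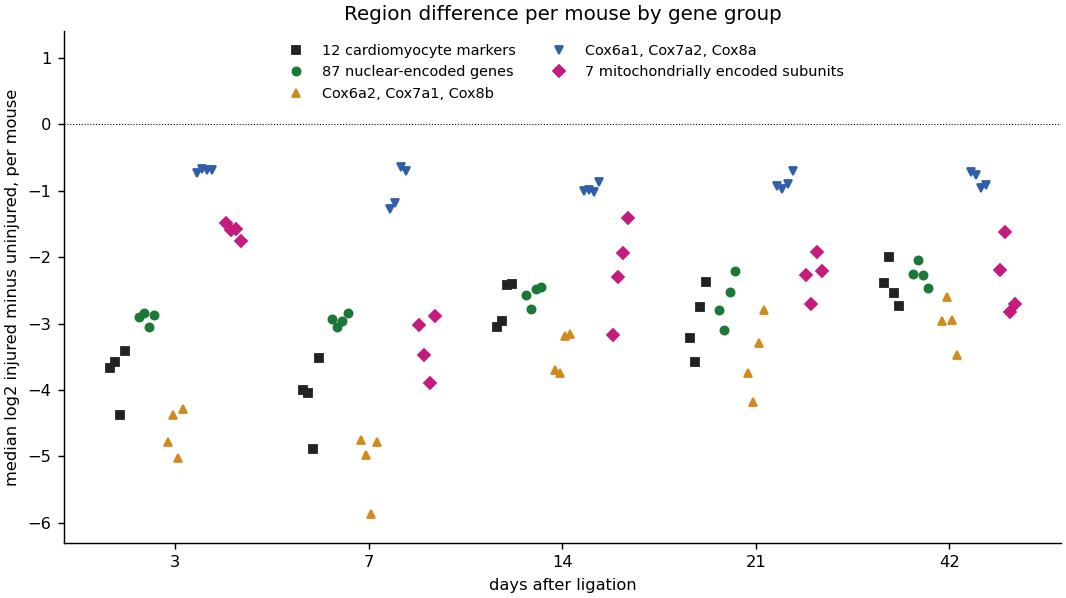
Median log2 difference, injured minus uninjured, within each mouse (y axis) by day after ligation (x axis), 1 point per mouse and gene group. The 87 nuclear-encoded genes lie between -3.10 and -2.04, the 3 muscle-type isoforms lower and their widely expressed counterparts nearest to 0.

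All 5 complexes were lower in the injured region, and whether they differ from each other was not tested. The median difference over the 5 days was -2.67 for complex I, -2.63 for complex II, -2.90 for complex III, -2.74 for complex IV and -2.79 for complex V, as the median over genes of each gene's mean over days. The 7 complex I assembly factors stood nearer to 0, at -1.53, and so did Atp5s and Atp5sl. The genes within a complex differed more than the complexes did, above all in complex IV, where the mean difference ran from -4.37 to -0.61.

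**Figure D2:**
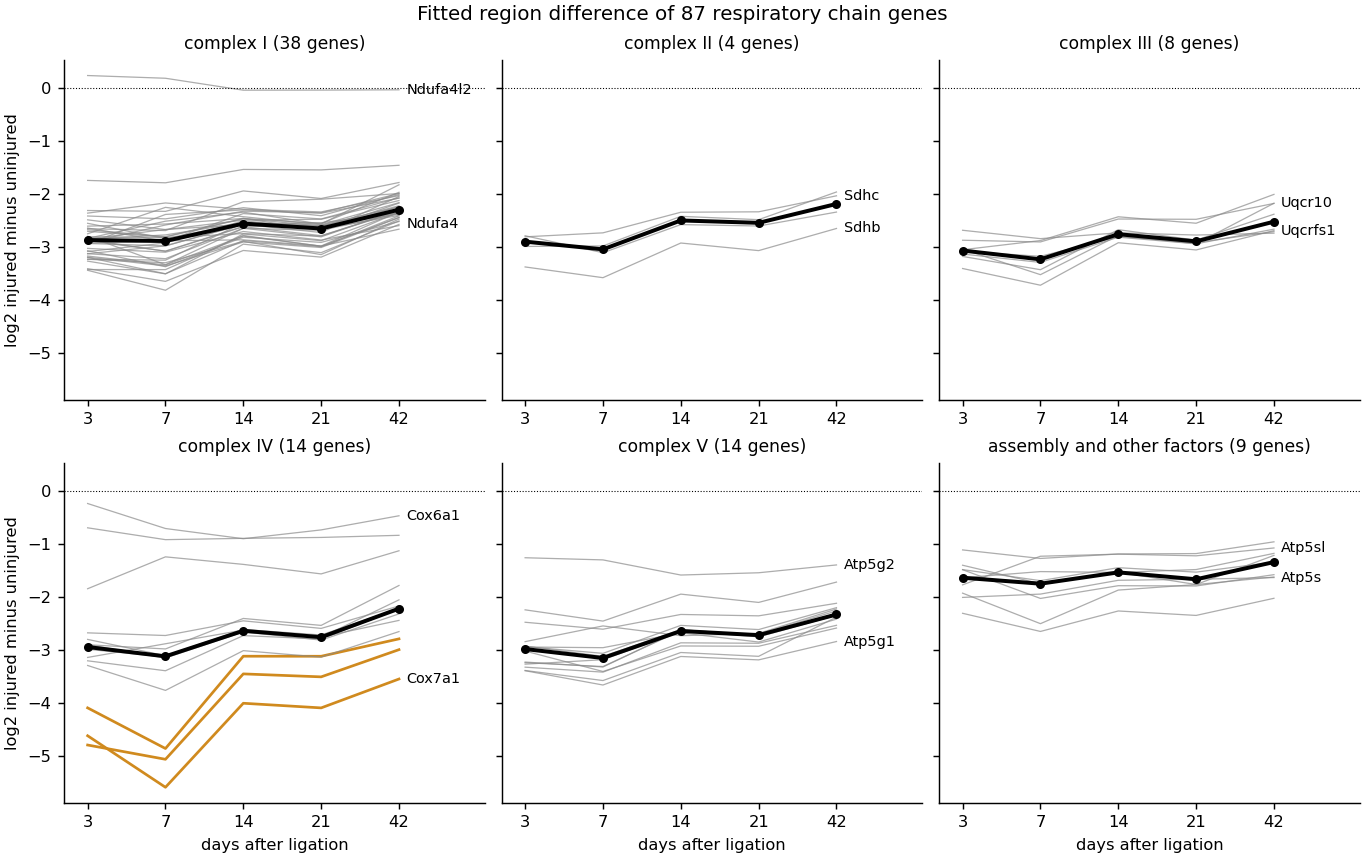
Fitted log2 difference between injured and uninjured region (y axis) by day (x axis) for each of the 87 genes, 1 panel per complex; thin lines are genes, the black line is the median of the panel, and orange lines in complex IV are Cox6a2, Cox7a1 and Cox8b. Nearly all lines lie between -4 and -1 and move up after day 7, with Ndufa4l2 at 0 and Cox6a1 near it, both above 0 on some days under other scalings.

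Complex I takes electrons from NADH through Ndufv1, which binds the NADH, along iron-sulfur clusters, among them those of Ndufs1, and on to ubiquinone. Ndufs1 was at 12.8, 14.1, 11.2 and 16.1 RPKM in the 4 injured and 135, 137, 127 and 139 RPKM in the 4 uninjured libraries of day 3, a difference of -3.23 ± 0.12 (log2, SE) or 9.38-fold lower. On day 42 it was at 28.3, 30.6, 24.8 and 18.6 RPKM in the 4 injured and 138, 133, 122 and 100.5 RPKM in the 4 uninjured libraries of day 42, or 4.73-fold lower. The 2 regions did not overlap on either day, and the difference was smaller on day 42. Ndufv1 took a like course, with -3.13, -2.98, -2.57, -2.66 and -2.40 on days 3, 7, 14, 21 and 42. Of the 38 genes, 37 were lower on each day. The lowest mean difference belonged to Ndufa4, at -3.41, -3.65, -3.07, -3.19 and -2.57, a gene named for complex I whose protein has since been described as a subunit of complex IV.

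Complex II, succinate dehydrogenase, is the 1 enzyme shared with the citric acid cycle and has no mitochondrially encoded subunit. All 4 of its genes were lower on each day. Sdhb, the iron-sulfur subunit, had the lowest mean difference, with 24.6, 29.1, 25.5 and 24.1 RPKM in the 4 injured and 312, 359, 340.0 and 271 RPKM in the 4 uninjured libraries of day 7, which is 11.9-fold lower. Sdha, the flavin-carrying subunit that oxidises succinate, differed by -2.99, -2.98, -2.42, -2.48 and -1.96 on the 5 days, and Sdhc, a membrane anchor, by -2.81, -2.73, -2.34, -2.34 and -2.03. The difference of all 4 changed with the day (adjusted p of the interaction by limma 0.000194 to 0.00404), as it did for 74.3% of all genes tested.

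In complex III all 8 genes were lower on each day. Uqcrfs1, the Rieske iron-sulfur protein that carries electrons towards cytochrome c, was the lowest, with 32.5, 30.4, 31.1 and 30.1 RPKM in the 4 injured and 375, 446, 493 and 381 RPKM in the 4 uninjured libraries of day 7, 13.2-fold lower. Uqcrc1, a core protein of the complex, differed by -3.13, -3.29, -2.81, -2.94 and -2.66 on the 5 days. Uqcr10, a small subunit, was nearest to 0 among the 8, at -2.87, -2.90, -2.47, -2.48 and -2.18. No value of the injured region reached the uninjured range for these genes on any day.

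Complex V holds the catalytic alpha and beta subunits, Atp5a1 and Atp5b, and a membrane ring of c subunits, which Atp5g1, Atp5g2 and Atp5g3 all encode with the same mature protein. Atp5a1 was the most abundant member of all in the uninjured region, at a mean of 1644 RPKM, and in the injured region too, at 237 RPKM. Atp5b was at 167, 185, 157 and 202 RPKM in the 4 injured and 1258, 1333, 1334 and 1537 RPKM in the 4 uninjured libraries of day 3, 7.65-fold lower, and differed by -2.94, -3.06, -2.54, -2.61 and -2.20 on the 5 days. Atp5g1 had the lowest mean difference of the 14 genes, at -3.39, -3.66, -3.12, -3.19 and -2.84. Atp5g2 was the nearest to 0, at -1.26, -1.30, -1.59, -1.54 and -1.40, and its difference was not called as changing over the days (adjusted p by limma 0.0599).

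Complex IV hands the electrons to oxygen in subunits that the mitochondrial genome encodes, with nuclear-encoded subunits around them. Cox4i1, the largest of these, was at 76.7, 97.8, 87.5 and 107 RPKM in the 4 injured and 728, 791, 801 and 958 RPKM in the 4 uninjured libraries of day 3, 8.82-fold lower, and differed by -3.14, -2.88, -2.62, -2.76 and -2.44 on the 5 days. Cox5a, which sits on the matrix side, was at 70.8, 65.4, 60.9 and 54.9 RPKM in the 4 injured and 771, 866, 1038 and 801 RPKM in the 4 uninjured libraries of day 7, 13.6-fold lower. For both genes each injured value was below each uninjured one.

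The factors lay nearer to 0, at a median over the 9 genes of -1.64, -1.75, -1.54, -1.67 and -1.34 on the 5 days; whether factors differ from subunits was not tested. Ndufaf1, which helps to put together the membrane arm of complex I, was the lowest of the 7 assembly factors, at -2.31, -2.65, -2.26, -2.35 and -2.03. Ndufaf7, a methyltransferase of complex I assembly, was the nearest to 0, at -1.11, -1.27, -1.19, -1.18 and -0.96. Ndufaf7 was at 4.65, 5.20, 4.75 and 5.03 RPKM in the 4 injured and 12.02, 13.7, 11.2 and 10.4 RPKM in the 4 uninjured libraries of day 3, with no overlap. Atp5s, a coupling factor by name, differed by -2.01, -1.95, -1.69, -1.67 and -1.63.

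The genes at both ends of complex IV were isoforms of the same subunits. Cox6a2, Cox7a1 and Cox8b, the heart and muscle forms of 3 small subunits around the catalytic core, had the 3 lowest mean differences of all 87 genes. Their widely expressed counterparts Cox6a1 and Cox8a were among the genes nearest to 0, and Cox7a2 stood in between. The 6 genes lie at chr7:128205435-128206387 (Cox6a2), chr7:30184144-30186078 (Cox7a1), chr7:140898945-140900446 (Cox8b), chr5:115345642-115348981 (Cox6a1), chr9:79755361-79759878 (Cox7a2) and chr19:7215153-7217616 (Cox8a) in mm10, by GENCODE release M21, and all 6 are protein-coding genes.

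The stretches before the start sites of 5 of these genes are shown because their products share a place in the enzyme while their RNA levels parted. Each is the 250 bases before the start, 5′ to 3′ on the gene's strand, from RefSeq on GRCm38.p6; capitals mark exact matches, on either strand, to the NRF1, ETS, YY1, ERR, MEF2, SP and TATA motifs.
Cox7a1 (chr7:30183921-30184170, plus strand): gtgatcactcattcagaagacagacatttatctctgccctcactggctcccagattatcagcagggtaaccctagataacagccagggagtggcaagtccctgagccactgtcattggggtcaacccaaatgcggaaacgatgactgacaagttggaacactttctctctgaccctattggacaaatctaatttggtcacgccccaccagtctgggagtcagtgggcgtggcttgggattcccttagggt
Cox8b (chr7:140900447-140900696, minus strand): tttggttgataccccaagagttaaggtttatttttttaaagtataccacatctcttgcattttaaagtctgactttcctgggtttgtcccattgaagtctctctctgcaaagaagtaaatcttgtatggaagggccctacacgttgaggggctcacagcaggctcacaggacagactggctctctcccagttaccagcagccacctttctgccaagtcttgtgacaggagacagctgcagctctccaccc
Cox6a1 (chr5:115348959-115349208, minus strand): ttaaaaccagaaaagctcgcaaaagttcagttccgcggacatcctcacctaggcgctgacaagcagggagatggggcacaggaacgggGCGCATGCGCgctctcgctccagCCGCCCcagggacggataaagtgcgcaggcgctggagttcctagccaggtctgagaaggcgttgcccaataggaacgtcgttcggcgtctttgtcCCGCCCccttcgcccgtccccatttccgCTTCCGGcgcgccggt
Cox7a2 (chr9:79759854-79760103, minus strand): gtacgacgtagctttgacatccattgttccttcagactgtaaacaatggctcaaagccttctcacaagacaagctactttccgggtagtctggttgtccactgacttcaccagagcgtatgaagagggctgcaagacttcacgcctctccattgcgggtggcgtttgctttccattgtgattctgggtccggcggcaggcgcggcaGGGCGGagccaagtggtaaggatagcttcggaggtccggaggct
Cox8a (chr19:7217617-7217866, minus strand): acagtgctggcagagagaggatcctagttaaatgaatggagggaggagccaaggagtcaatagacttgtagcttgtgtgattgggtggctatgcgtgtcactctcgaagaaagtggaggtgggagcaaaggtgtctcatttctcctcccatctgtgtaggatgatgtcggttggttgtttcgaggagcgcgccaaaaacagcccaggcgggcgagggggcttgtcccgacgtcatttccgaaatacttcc

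The 250 bases of Cox6a1 held 5 matches, among them an NRF1 match on each strand that overlap, and those of Cox7a2 held 1, while those of Cox7a1, Cox8b and Cox8a held none. The window that runs on to 50 bases after the start added a TATA match for Cox8b and an ETS match for Cox8a. Of CG pairs in 300 bases, 250 before to 50 after the start, Cox8b had 2 and Cox7a1 had 7. Cox6a1 had 32, Cox7a2 had 20 and Cox8a had 19. Over the 70 members with a RefSeq window the median was 20, and Cox8b was the lowest and Cox7a1 the third lowest. Between them was Cox7b, at 5, a complex IV gene that is in none of the isoform pairs. Cox6a2 was among the 17 members without such a window here.

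Cox6a2 was at 83.4, 102, 61.5 and 126 RPKM in the 4 injured and 1556, 1628, 1338 and 1722 RPKM in the 4 uninjured libraries of day 3, 17.0-fold lower. On day 7 it was at 37.0, 41.3, 25.1 and 37.8 RPKM in the injured and 1019, 1254, 1068 and 836 RPKM in the uninjured libraries, 29.0-fold lower. Day 7 thus had the lowest injured values, all 4 below those of the other days. On day 14 the 4 injured libraries held 114, 144, 206 and 195 RPKM, on day 21 152, 128, 182 and 187 RPKM and on day 42 213, 202, 165 and 119 RPKM. Uninjured libraries held 1224, 989.9, 1278 and 1269 RPKM on day 42, so the regions stayed apart. The differences were -4.09, -4.86, -3.12, -3.12 and -2.79 on the 5 days, and Cox6a2 had the smallest p of all members for a change of the difference with the day (adjusted p by limma 4.46e-06).

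Cox7a1 was the most lowered gene. It was at 21.2, 25.8, 12.01 and 19.9 RPKM in the 4 injured and 939, 1107, 1061 and 779 RPKM in the 4 uninjured libraries of day 7, a difference of -5.59 ± 0.19 (log2, SE) or 48.1-fold. On day 42 the 4 injured libraries held 108, 131, 82.2 and 60.7 RPKM and the 4 uninjured ones 1143, 1113, 1165 and 928 RPKM. The lowest injured value of day 7, that of mouse A10, was also the lowest of Cox7a1 in all 40 libraries, and day 42 was the day with the highest injured mean. Cox8b was at 43.0, 40.7, 18.3 and 30.1 RPKM in the 4 injured and 1069, 1319, 1128 and 855 RPKM in the 4 uninjured libraries of day 7, 33.4-fold lower, and on day 42 at 132, 143, 109.5 and 84.0 RPKM against 1033, 872, 849 and 942 RPKM. Mouse A10 was again lowest on day 7. The differences on the 5 days were -4.62, -5.59, -4.00, -4.09 and -3.55 for Cox7a1 and -4.79, -5.06, -3.45, -3.51 and -2.99 for Cox8b.

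Cox6a1, the widely expressed form, was at 69.8, 71.7, 70.9 and 77.6 RPKM in the 4 injured and 81.1, 92.8, 91.8 and 78.1 RPKM in the 4 uninjured libraries of day 3, with the highest injured value just under the lowest uninjured one. The difference was -0.24 ± 0.10 (log2, SE), the smallest of any called gene, but 0.54 with libraries scaled to the total of recovered reads. Its adjusted p by limma was 0.0275. Without mouse A4, A5 or A7 of day 3 it was 0.0543, 0.118 and 0.116 and no longer called. On day 14 Cox6a1 was at 48.7, 50.4, 48.5 and 51.6 RPKM in injured and 86.1, 95.8, 98.9 and 95.5 RPKM in uninjured libraries, a clear gap. Its differences were -0.24, -0.71, -0.90, -0.74 and -0.47 on the 5 days, but above 0 on days 3, 21 and 42 with the total of recovered reads, at 0.24 on day 42.

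Cox8a was at 88.2, 109.8, 99.97 and 99.7 RPKM in the 4 injured and 148, 176, 162 and 160.4 RPKM in the 4 uninjured libraries of day 3, and its differences of -0.70, -0.92, -0.90, -0.88 and -0.84 were not called as changing with the day (adjusted p of the interaction by limma 0.559) and turned to values above 0 under other scalings, such as 0.28 on day 3 with quantile normalization. Cox7a2 was at 59.0, 63.7, 56.2 and 63.6 RPKM in the 4 injured and 418, 476, 467 and 477 RPKM in the 4 uninjured libraries of day 3 and at 106, 113, 98.5 and 81.9 RPKM against 396, 369.7, 313 and 307 RPKM on day 42. Its differences, -2.90, -2.98, -2.41, -2.54 and -1.78, were close to the median of all members and not to those of Cox6a1 and Cox8a.

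**Figure D3:**
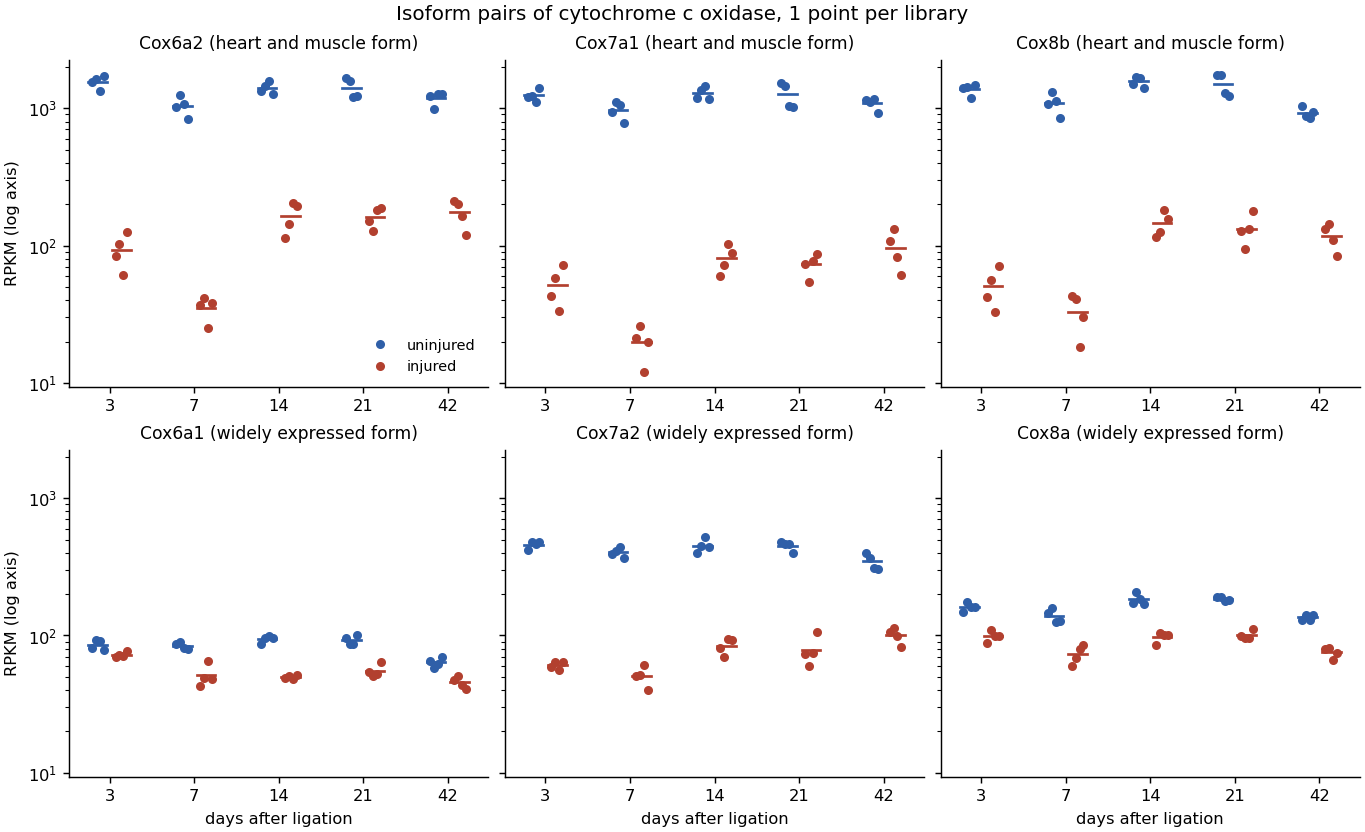
RPKM on a log axis (y axis) by day (x axis) for the 3 isoform pairs of cytochrome c oxidase, 1 point per library and a short line at each mean of 4. The muscle forms in the upper row lie between 12.01 and 213 RPKM in injured and between 779 and 1747 RPKM in uninjured libraries; the gap is smallest for Cox6a1 and Cox8a.

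The share of 1 gene in the summed RPKM of a pair, taken inside each library, does not change with a factor that scales the whole library. Cox6a2 made up 91.4 to 95.7% of the summed RPKM of Cox6a2 and Cox6a1 in the uninjured libraries and 27.6 to 81.9% in the injured ones. On day 7 the 4 injured libraries stood at 46.3, 45.7, 27.6 and 44.1%, and on day 42 at 81.9, 79.8, 79.0 and 74.3%. The 2 regions did not overlap on any day, and the injured share was lowest on day 7. For Cox7a1 of Cox7a1 and Cox7a2 the share was 67.8 to 78.8% in uninjured and 16.5 to 53.7% in injured libraries, and for Cox8b of Cox8b and Cox8a it was 86.2 to 90.4% and 18.7 to 64.4%.

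The log2 ratio of the muscle form to the other form, with 1 RPKM added to both, was lower in the injured region in 20 of 20 mice for all 3 pairs. The mean difference was -2.98 ± 0.94 (SD, n = 20) for Cox6a2 to Cox6a1, -1.85 ± 0.53 for Cox7a1 to Cox7a2 and -3.11 ± 0.96 for Cox8b to Cox8a. With 0.1 RPKM added the means were -2.99, -1.86 and -3.13. By a two-sided sign-flip permutation test over the 20 mice each p was 1e-05, the smallest that 100000 resamples can give, and 1e-05 adjusted over the 6 pairs tested. In the injured region the ratio of all 3 pairs also differed among the days by a permutation test of the spread between days, with adjusted p of 0.00012, 0.00296 and 0.00072. Days accounted for 89.0, 70.0 and 81.4% of the spread. The ratios of Ndufa4l2 to Ndufa4, Atp5g1 to Atp5g3 and Atp5g2 to Atp5g3 differed among the days there as well (adjusted permutation p of 0.0232, 0.0139 and 0.0127). The Ndufa4l2 ratio was not called without mouse A12 of day 7 or B3 of day 42 (0.0749 and 0.0504).

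In the uninjured region the Cox6a2 to Cox6a1 ratio differed among days as well (adjusted permutation p of 0.0127), while for Cox7a1 to Cox7a2 and Cox8b to Cox8a the adjusted p was 0.0572 and 0.0997. The first of these fell below 0.05 without mouse A3, A4 or A10 of day 21, B1 of day 42 or A9 of day 7 (0.0379, 0.0488, 0.0218, 0.0475 and 0.0426), and the second without B1 (0.0475). The Atp5g1 to Atp5g3 ratio also differed among days there (adjusted permutation p of 0.0139). Those of Ndufa4l2 to Ndufa4 and Atp5g2 to Atp5g3 did not (0.0997 and 0.164), though the Ndufa4l2 ratio did without B1 (0.0407).

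**Figure D4:**
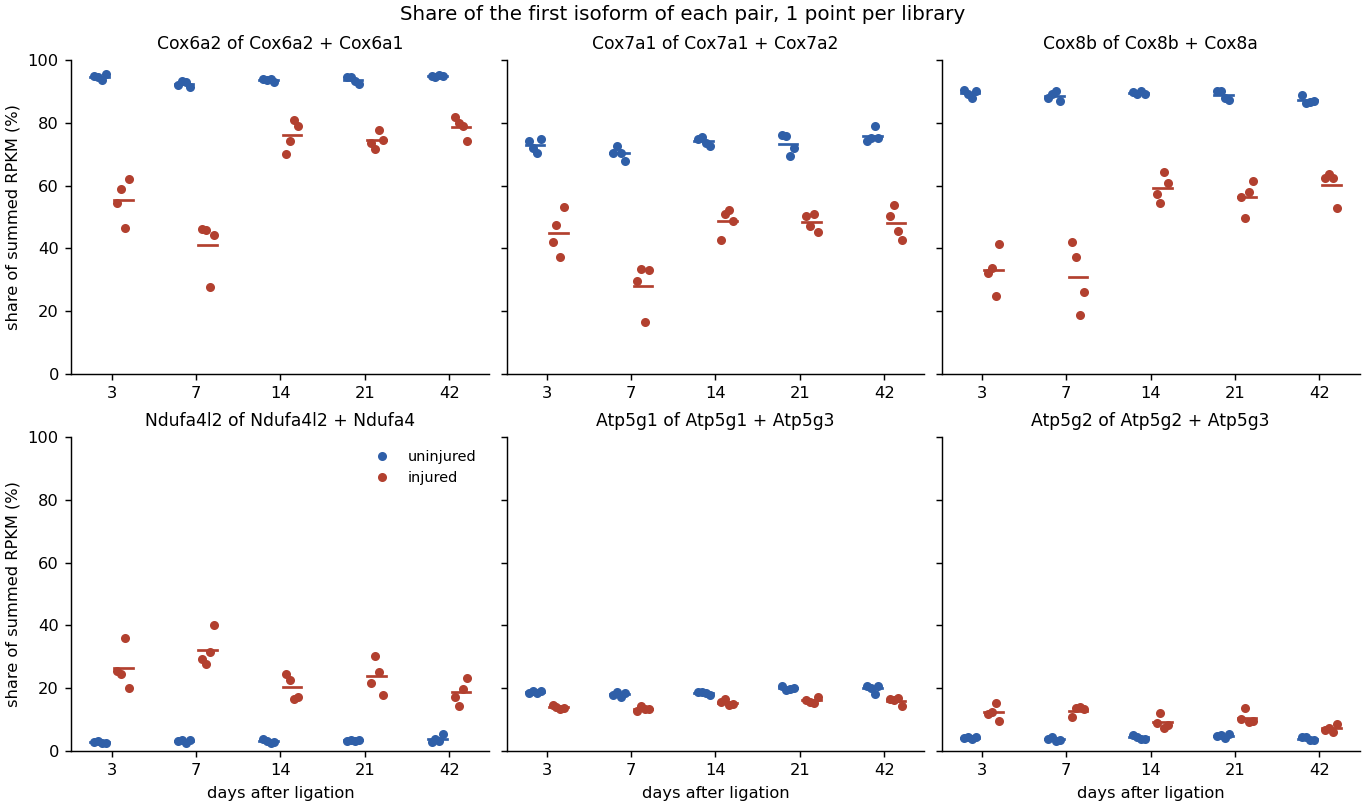
Share of the first gene in the summed RPKM of each isoform pair in percent (y axis, 0 to 100) by day (x axis), 1 point per library and a short line at each mean of 4. The 3 muscle forms of cytochrome c oxidase lose share in the injured region, most on day 7, while Ndufa4l2 and Atp5g2 gain share there.

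Ndufa4l2, a paralog of Ndufa4 whose RNA is known to rise under low oxygen, did not differ by the test where the other members were lower. It was at 16.1, 15.3, 21.0 and 14.0 RPKM in the 4 injured and 13.2, 15.8, 12.5 and 14.0 RPKM in the 4 uninjured libraries of day 3, and at 13.6, 11.4, 14.2 and 13.2 RPKM against 12.3, 14.6, 10.6 and 16.9 RPKM on day 42, with overlap on both days. The differences were 0.23, 0.18, -0.04, -0.04 and -0.04 with adjusted p by limma up to 0.796. Under other scalings it was called higher, such as 0.66 on day 14 and 0.62 on day 42 with the total of recovered reads. Without mouse A5 of day 3, or A9 of day 7, Ndufa4l2 was called higher on that day, by 0.32 each time. Ndufa4 was at 46.9, 47.6, 37.6 and 55.6 RPKM in the 4 injured and 457, 503, 526 and 531 RPKM in the 4 uninjured libraries of day 3. The share of Ndufa4l2 in the sum of both was 2.32 to 5.39% in uninjured and 14.3 to 40% in injured libraries, and the log2 ratio was higher in the injured region in 20 of 20 mice, by 3.23 ± 0.59 (SD, sign-flip permutation p of 1e-05, adjusted 1e-05).

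Among the c subunit genes, Atp5g3 was the most abundant, at 22.2 to 57.1 RPKM in injured and 223 to 417 RPKM in uninjured libraries. Atp5g1 was at 3.44 to 11.3 and 50.5 to 94.5 RPKM, and Atp5g2 at 2.13 to 6.00 and 7.91 to 17.8 RPKM. Against Atp5g3, Atp5g2 was relatively higher in the injured region in 20 of 20 mice, by 1.55 ± 0.44 (log2, SD), and Atp5g1 relatively lower in 20 of 20, by -0.27 ± 0.12 (sign-flip permutation p of 1e-05 for both, adjusted 1e-05). Both genes are low, and the added 1 RPKM bears on these values. With 0.1 RPKM added the means were 1.403 for Atp5g2 and -0.41 for Atp5g1, again of 1 sign in 20 of 20 mice each.

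The size of the region difference changed with time in 71 of the 87 genes (interaction by limma, adjusted p under 0.05), where 74.3% of all genes tested did so. The difference was lowest on day 7 in 62 genes, on day 3 in 20, on day 14 in 3 and on day 21 in 2. No gene had its lowest difference on day 42. Ndufa4l2 counts under day 14 here, though its difference was farther from 0 on day 3. The day of the lowest difference was not counted over all genes, so the 62 has no share to be read against. That day also depends on the scaling. With the same total of RPKM per library the members' median difference was -2.19 on day 3 and -1.95 on day 7. Cox6a2, Atp5sl and Cox8b had the 3 smallest p, with adjusted p of 4.46e-06, 5.31e-06 and 6.55e-06. Atp5sl, also known as Dmac2 and linked to the assembly of complex I's membrane arm, moved unlike the other two, with -1.77, -1.23, -1.19, -1.23 and -1.08 on the 5 days, widest on day 3.

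Within the injured region 82 of the 87 genes differed among the days (limma F test, 87.6% of all genes). From day 3 to day 7, 47 members fell and 2 rose, where 32.7% of all genes fell and 27.7% rose. Cox6a2 fell most, by 1.35 ± 0.23 on the log2 scale (SE, adjusted p by limma 6.42e-05), and Cox7a1 changed by -1.33 ± 0.26. The median member changed by -0.34. By complex, 18 of 38 genes of complex I, 4 of 4 of complex II, 5 of 8 of complex III, 7 of 14 of complex IV, 8 of 14 of complex V and 5 of 7 assembly factors fell. In the same step 8 of 8 fibroblast markers rose, at a median of 1.59, 5 of 8 macrophage markers rose and 1 fell, 5 of 6 endothelial markers fell, at -0.99, and 3 of 12 cardiomyocyte markers fell, at -0.24. Their part in the members' fall was not tested.

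The 2 genes that rose were Cox7a2l, a factor that joins complexes into supercomplexes, by 0.37 ± 0.10 (adjusted p by limma 0.00283), and Atp5sl, by 0.21 ± 0.09 (adjusted p by limma 0.0392). Atp5sl was not called without mouse A4, A7 or A8 of day 3 or A9 or A12 of day 7, with adjusted p of 0.0813, 0.134, 0.0531, 0.0886 and 0.117. The fall of the members in this step depends on the scaling. With each library set to the same total of RPKM, 2 fell and 15 rose. Mitochondrially encoded RNA took up 7.66 to 10.9% of recovered reads in injured libraries of day 3 and 2.27 to 4.05% on day 7, and its part in that difference was not tested.

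From day 7 to day 14 the scar's respiratory chain genes rose. In this step 75 of the 87 genes rose and none fell, where 21.9% of all genes rose and 21.2% fell, and no member fell at an unadjusted p under 0.05 by limma or by voom. The median change was 0.69. Cox6a2 rose by 2.17 ± 0.23, Cox8b by 2.15 ± 0.27 and Cox7a1 by 2.001 ± 0.26 (log2, SE), far more than any other member. All 8 genes of complex III and all 4 of complex II rose, with 33 of 38 of complex I and 12 of 14 each of complexes IV and V, but 5 of 7 assembly factors. The 12 cardiomyocyte markers rose too, 12 of 12, with a median of 1.53, while 7 of 8 macrophage markers fell, at a median of -0.93. Of 8 fibroblast markers 4 fell and 2 rose, at a median of -0.23, and none of 6 endothelial markers was called. The part of these cells in the rise was not tested.

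From day 14 to day 21 no member changed in the injured region, by limma or by voom on recovered reads; 2 were lower at an unadjusted p under 0.05. The same step called 0% of all genes as lower and 0% as higher. From day 21 to day 42, 11 members rose and 3 fell, where 11.2% and 13.6% of all genes did. Uqcrb, a small subunit of complex III, rose most. It was at 39.7, 34.0, 42.4 and 53.0 RPKM on day 21 and at 80.3, 89.7, 69.6 and 63.4 RPKM on day 42, all 4 above day 21, a rise of 0.83 ± 0.13 (adjusted p by limma 2.47e-04). In the same step 2 of 12 cardiomyocyte markers rose, at a median of 0.44, and 4 of 7 mitochondrially encoded subunits, at 0.72. Of the other markers 3 of 8 fibroblast, 4 of 8 pericyte and smooth muscle and 2 of 8 macrophage markers fell. Of 6 endothelial markers 1 fell and 1 rose. Their part was not tested, and the set of mice changes with this step.

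The 3 that fell over the last step were Atp5g2, by 0.58 ± 0.11, Cox8a, by 0.41 ± 0.11, and Ndufa4l2, by 0.36 ± 0.12 (log2, SE, adjusted p by limma 9.95e-04, 0.0109 and 0.029). Ndufa4l2 was not called without mouse A4 or A10 of day 21 or B3 of day 42 (0.0544, 0.098 and 0.0969). Single libraries decide these counts: without mouse B12 of day 42, 20 members rose, and without B3 of day 42, 7 did. The number that fell was 5 without mouse A4 of day 21 and 5 without A10 of day 7.

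The members moved in the uninjured region too, where 62 of 87 members differed among the days (limma F test, 47.2% of all genes). That count was 19 with the same total of RPKM and 38 with the total of recovered reads. From day 3 to day 7, 34 members fell and none rose, at a median of -0.26, where 14.5% of all genes fell and 10.4% rose. Ndufa13, a complex I subunit, fell most, by 0.68 ± 0.12 (adjusted p by limma 6.21e-04). From day 7 to day 14, 30 members rose and none fell, where 7.49% rose and 5.56% fell among all genes, and Ndufa13 again moved most, by 0.67 ± 0.12 (adjusted p by limma 9.79e-04). In neither step did a member move the other way at an unadjusted p under 0.05, or by voom, both in the deposited scaling.

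These counts lean on single mice. Without mouse A8 of day 3, A12 of day 7 or A7 of day 7, 20, 19 and 18 members fell from day 3 to day 7. Without mouse A5 of day 14, A6 of day 14, A12 of day 7 or A7 of day 7, 12, 6, 6 and 8 rose from day 7 to day 14. They also depend on the scaling, since with the same total of RPKM per library 8 fell in the first step and 2 rose in the second. With quantile normalization some members moved the other way: 18 fell and 4 rose in the first step, and 6 rose and 3 fell in the second. The uninjured region's 12 cardiomyocyte markers had 5 fallen in the first step and 4 risen in the second.

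From day 14 to day 21 no member changed in the uninjured region by limma or voom, none at an unadjusted p under 0.05, and of all genes 0% were lower and 0.00878% higher. From day 21 to day 42, 33 of the 87 genes fell and none rose, also not at an unadjusted p under 0.05 or by voom, where 10.1% of all genes fell and 10.4% rose. Complex V had 8 of 14 genes lower, complex IV 6 of 14 and complex I 15 of 38. Ndufs5, a subunit of complex I's membrane arm, fell most. It was at 40.2, 42.8, 45.4 and 42.4 RPKM on day 21 and 24.1, 12.5, 18.7 and 23.1 RPKM on day 42, with no overlap, a fall of 1.12 ± 0.22 (adjusted p by limma 0.00141). Of the cardiomyocyte markers 2 of 12 rose and none fell. In the same step 4 of 8 fibroblast markers, 4 of 8 pericyte and smooth muscle markers, 2 of 8 macrophage and 2 of 6 endothelial markers fell, and 4 of 7 mitochondrially encoded subunits rose, at a median of 0.64. Their part was not tested. With the same total of RPKM per library 9 members fell, and with quantile normalization 20 fell and 2 rose. The set of mice changes with this step.

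**Figure D5:**
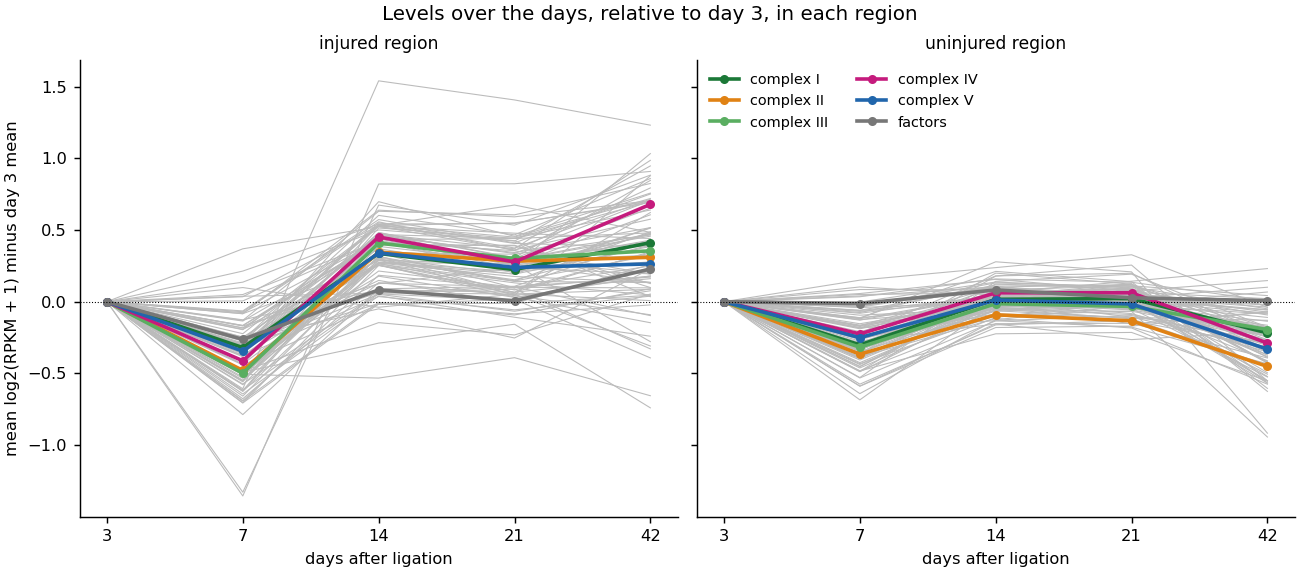
Mean log2 of RPKM + 1 minus the mean of day 3 (y axis) by day (x axis) in the injured (left) and uninjured (right) region; grey lines are the 87 genes and coloured lines the medians of each complex and of the 9 factors. The injured region dips on day 7 and rises by day 14, and the uninjured region shows smaller shifts and lower values on day 42.

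Whether a step differed between the regions was tested directly, as the injured step minus the uninjured step within the mouse-blocked fit. From day 7 to day 14 the change was higher in the injured region for 40 members, where 10.7% of all genes were. The largest such differences were those of Cox6a2, 1.74 ± 0.27, Cox8b, 1.61 ± 0.29, and Cox7a1, 1.58 ± 0.28 (adjusted p by limma 1.90e-04, 7.47e-04 and 5.17e-04). The count was 21 without mouse A10 of day 7, 23 without A6 of day 14 and 19 without A11 of day 14. From day 3 to day 7 the change was lower in the injured region for 9 members and higher for 4, against 22.1% and 23.8% of all genes. Both counts turn with the scaling, with 35 lower and 2 higher under quantile normalization, 25 lower with the total of recovered reads, and 1 lower and 15 higher with the same total of RPKM. The count of 9 was 5 without mouse A8 of day 3 or without A10 of day 7.

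From day 21 to day 42, 19 members changed more upwards in the injured region, where 4.58% of all genes did. The largest difference was that of Uqcrb, 0.76 ± 0.18 (adjusted p by limma 0.0111), for which the injured region rose. For Cox7a2, with 0.75 ± 0.17 (adjusted p by limma 0.00681), the uninjured region fell, by 0.38 ± 0.10 (adjusted p by limma 0.0118). Its injured step was 0.37 ± 0.15 and not called (adjusted p by limma 0.0812). This count was 4 with the same total of RPKM, 7 with quantile normalization and 12 without the mouse as a block. It also rested on single mice and was 57 without mouse A11, 3 without A3 and 6 without A4 of day 21, and 9 without B1, 7 without B3 and 12 without B9 of day 42.

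Other genes of the pathway were lower too. All 7 mitochondrially encoded subunits listed, among them mt-Co1 of complex IV and mt-Cytb of complex III, were lower in the injured region on each day, with a median of -1.60 on day 3, -3.23 on day 7, -2.20 on day 14, -2.28 on day 21 and -2.34 on day 42. On day 3 that median was nearer to 0 than the nuclear-encoded one, and on day 7 farther from it. All 11 electron carriers and related parts, among them Cycs, cytochrome c, and Cyc1, cytochrome c1, were lower on each day, at medians of -2.35 to -2.04. Of 30 assembly factors outside the rule, 29 were lower and Cox18 higher on day 3, and 30 of 30 were lower on the other 4 days, at medians of -1.42 to -1.10.

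Of 12 regulators of these genes, 9 were lower on each day, among them the coactivator genes Ppargc1a and Perm1 and the receptor gene Esrra. Ppargc1a differed by -2.84, -3.03, -2.11, -1.78 and -1.94 on days 3, 7, 14, 21 and 42, and Perm1, which is mainly active in muscle, by -4.43, -4.52, -2.64, -2.76 and -2.42. Nrf1, the gene of nuclear respiratory factor 1, was higher, at 0.52, 0.46, 0.44, 0.50 and 0.32. Its calls, like that of Cox18 on day 3 and those of the other regulators near 0, are relative to the deposited scaling.

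The level, length and named pseudogenes of the members were also looked at. Genes with a higher level in the uninjured region had a larger difference (Spearman's rho of -0.67 across 87 genes, as a description; both measures contain the uninjured level and genes are not independent). Length, worked back from the RPKM, ran from 360.0 to 8086 bases with a median of 1501, and its rho with the steps within a region was between -0.15 and 0.15 except for 0.28 with the uninjured step from day 21 to day 42. Only 4 members, Atp5c1, Uqcrh, Atp5k and Ndufab1, have a pseudogene of the same name in the annotation; how reads that match several places were counted is not given in the sources used here.

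Of the 87 genes, 70 matched a RefSeq promoter window of 300 bases. Each motif was searched as exact letters on both strands. The NRF1 motif GCGCATGC was in 15.7% of the members and in 6.11% of the 8596 genes of the table with a window, the YY1 motif AAGATGGCG in 10% and 3.77%, and the ERR motif AAGGTCA in 10% and 3.71%. The ETS motif CCGGAAG was in 22.9% and 20.1%, close to each other. The SP motif GGGCGG was in 42.9% and 69.8% and TATAAA in 7.14% and 8.93%. The MEF2 motif TAAAAATA was in 0 of the 70 and in 1.66% of the table's genes. By complex, the YY1 motif was found in 5 genes of complex I and 2 of complex V, and the NRF1 motif in 11 genes spread over complexes I to V and the assembly factors.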

How the data were processed

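The authors deposited RPKM values (reads per kilobase of gene and library size) for 11450 genes in 40 libraries of messenger RNA, 20 mice with an injured and an uninjured sample each. Alignment with STAR, use of edgeR and the mm10 build come from the submitters' processing notes. For the counting method and annotation these sources give nothing. Whole reads were recovered from the steps of the RPKM values for 100% of genes, within 0.01 reads, and the implied library sizes matched recovered totals times TMM factors within 0.001% in 40 of 40 libraries.

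Values were taken as log2(RPKM + 1), so fold changes are on that scale, and genes with at least 1 RPKM in 4 libraries were tested (11390, among them all 87 members). limma 3.58.1 in R 4.3.3, with trended and robust moderation, was fitted between regions with the mouse as a block and over days within each region, each with 15 residual degrees of freedom. p-values were adjusted over all genes by the Benjamini-Hochberg method, with a threshold of 0.05. Both samples of a mouse come from 1 heart, and their deviations from the group means correlated at 0.15 to 0.54 over the 20 pairs. Isoform ratios, with 1 RPKM added to both genes, were tested by permutation with 100000 resamples; 8 pairs were listed and 6 are in the table. The steps were checked on simulated data.

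Genes named with values were those of the isoform pairs, 1 to 3 central subunits per complex, the lowest and highest mean difference of each class, members called on no day or higher, the 3 smallest interaction p, and the largest called rise and fall of each step; others were named after their values were seen, and 1 gene of the rule is not reported here. Members and lists were chosen with earlier results of these data known. The test of steps between regions and voom on recovered reads were chosen after seeing the data. Alternatives were the pseudocount, the filter, 3 scalings, the block, moderation, fits on fewer days and leaving out each mouse.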

Additional observations from a re-analysis of the deposited data

Results flagged for a closer look

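In 6 of 205 groups of 4 libraries a single library stood apart, its gap to the nearest other library being a large part of the group's range. Chance alone gives about 1 in 20 at this 95% limit, or 10.25 of the 205 groups, so 6 is fewer than chance alone gives. Ndufa4l2, the paralog of Ndufa4, was at 18.4 RPKM in the uninjured library of mouse A9 on day 7 against 14.3 to 14.9 in the others, a gap of 0.860 of the range. Ndufa4 was at 30.3 RPKM in the injured library of mouse A12 on day 7 against 39.96 to 40.8, a gap of 0.924. Ndufs5, a complex I subunit, was at 4.84 RPKM in the injured library of mouse A5 on day 14 against 8.04 to 8.55, a gap of 0.862. Atp5sl was at 4.82 RPKM in the injured library of mouse B1 on day 42 against 5.86 to 5.96, a gap of 0.907.

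The share of Cox6a2 in Cox6a2 and Cox6a1 was 27.6% in the injured library of mouse A10 on day 7 against 44.1 to 46.3%, a gap of 0.884. The share of Cox8b in Cox8b and Cox8a was 52.9% in the injured library of mouse B12 on day 42 against 62.3 to 63.7%, a gap of 0.872.

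Effects that differed between days or regions by a test of the difference were found as well. The region difference changed over the days in 71 of 87 members by limma, and in 74.3% of all genes, with the smallest adjusted p for Cox6a2 (4.46e-06), Atp5sl (5.31e-06) and Cox8b (6.55e-06). The change over a step differed between regions for 19 members from day 21 to day 42 (4.58% of all genes) and for 40 from day 7 to day 14 (10.7%), all higher in the injured region. From day 3 to day 7 it was lower in the injured region for 9 members and higher for 4, where 22.1% and 23.8% of all genes were.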

How the results depend on the processing

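Among named genes, values with a call in either fit turned from below 0 to above 0 between the regions under other scalings alone. Changes of sign without a call in either fit are not listed. With the same total of RPKM Cox6a1 was 0.46, 0.32, 0.23, 0.47 and 0.58 on day 3, 7, 14, 21 and 42. With quantile normalization Cox6a1 was 0.49, 0.099 and 0.081 on day 3, 21 and 42. With the total of recovered reads Cox6a1 was 0.54, 0.055 and 0.24 on day 3, 21 and 42. With the same total of RPKM Cox8a was 0.010, 0.11, 0.24, 0.34 and 0.22 on day 3, 7, 14, 21 and 42. With quantile normalization Cox8a was 0.28, 0.019 and 0.12 on day 3, 14 and 21. With the total of recovered reads Cox8a was 0.088 on day 3. With the same total of RPKM Ndufa4l2 was 1.04, 1.12 and 0.96 on day 14, 21 and 42. With quantile normalization Ndufa4l2 was 0.28 and 0.32 on day 14 and 21. With the total of recovered reads Ndufa4l2 was 0.66, 0.71 and 0.62 on day 14, 21 and 42. With the same total of RPKM the injured step from day 3 to day 7 was 0.10 for Cox6b1, 0.0408 for Cox8a, 0.35 for Ndufa13, 0.13 for Ndufaf1, 0.29 for Ndufaf7, 0.00249 for Sdha, 0.15 for Sdhc and 0.0973 for Uqcrb. With quantile normalization the uninjured step from day 3 to day 7 was 0.26 for Ndufa4.

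Counts of members moved with the scaling as well. With the same total of RPKM members numbered 2 higher between regions on day 14, 3 higher between regions on day 21, 2 higher between regions on day 3, 2 higher between regions on day 42, 2 higher between regions on day 7, 4 higher as a difference of steps from day 21 to 42, 1 lower as a difference of steps from day 3 to 7, 15 higher as a difference of steps from day 3 to 7, 2 lower in the injured region from day 3 to 7, 15 higher in the injured region from day 3 to 7, 9 lower in the uninjured region from day 21 to 42, 8 lower in the uninjured region from day 3 to 7, 2 higher in the uninjured region from day 7 to 14 and 19 changed over the days in the uninjured region. With quantile normalization members numbered 1 higher between regions on day 14, 1 higher between regions on day 21, 3 higher between regions on day 3, 1 higher between regions on day 7, 7 higher as a difference of steps from day 21 to 42, 35 lower as a difference of steps from day 3 to 7, 2 higher as a difference of steps from day 3 to 7, 67 higher as a difference of steps from day 7 to 14, 5 lower in the injured region from day 21 to 42, 20 lower in the uninjured region from day 21 to 42, 2 higher in the uninjured region from day 21 to 42, 18 lower in the uninjured region from day 3 to 7, 4 higher in the uninjured region from day 3 to 7, 3 lower in the uninjured region from day 7 to 14 and 6 higher in the uninjured region from day 7 to 14. With the total of recovered reads members numbered 1 higher between regions on day 14, 1 higher between regions on day 21, 2 higher between regions on day 3, 2 higher between regions on day 42, 1 higher between regions on day 7, 25 lower as a difference of steps from day 3 to 7, 6 lower in the injured region from day 21 to 42, 13 lower in the uninjured region from day 3 to 7, 5 higher in the uninjured region from day 7 to 14 and 38 changed over the days in the uninjured region. The fit with no replicate block, which drops the pairing of both samples of a mouse, gave 12 higher as a difference of steps from day 21 to 42, and it changed no other count by over 1.5 times. With voom on recovered reads members numbered 1 higher in the injured region from day 3 to 7. With only the libraries of the 2 days members numbered 1 higher in the injured region from day 3 to 7. Leaving out 1 mouse at a time gave 0 to 1 higher between regions on day 3, 0 to 1 higher between regions on day 7, 3 to 57 higher as a difference of steps from day 21 to 42, 5 to 10 lower as a difference of steps from day 3 to 7, 0 to 1 lower as a difference of steps from day 7 to 14, 19 to 48 higher as a difference of steps from day 7 to 14, 2 to 5 lower in the injured region from day 21 to 42, 7 to 20 higher in the injured region from day 21 to 42, 1 to 2 higher in the injured region from day 3 to 7, 18 to 40 lower in the uninjured region from day 3 to 7 and 6 to 36 higher in the uninjured region from day 7 to 14. The percentage of the spread of isoform ratios between days then ran from 38.4 to 55.2 for Cox7a1/Cox7a2 in the uninjured region, 31.6 to 49.4 for Cox8b/Cox8a in the uninjured region, 47.6 to 59.4 for Ndufa4l2/Ndufa4 in the injured region and 32.3 to 48.5 for Ndufa4l2/Ndufa4 in the uninjured region. Of the values of named genes under all alternatives, 11990 counted as unchanged, which includes changes of sign where neither fit had a call. A further 243 lost the call, 72 gained it, and 37 changed sign with a call in either fit. The causes of these shifts were not tested. Depth limits little here, since the thinnest member value rests on 47 reads, but 4 mice a day limit the precision of steps, and day 42 differs from the others in its set of mice.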
